A study of Homo sapiens with 3 samples.

Results

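Genes of the major histocompatibility complex (MHC) were examined in wild-type KBM7 cells, an established near-haploid human leukaemia line of myeloid origin. The 9 genes were chosen by name, and no threshold on their signal entered the choice, although earlier results of these data were known when they were listed. They are 4 genes of class I (HLA-B, HLA-C, HLA-E and B2M) and 5 of class II (HLA-DRA, HLA-DPA1, HLA-DMA, CIITA and CD74), out of the 19970 protein-coding genes of the autosomes and X. Per the labels, the series holds 3 libraries of these cells grown in serum-containing medium, for H3K27ac (Abcam antibody), for H3K4me3 (Millipore antibody) and for an input made with no antibody. The cells are labelled wild type, with no treatment, and are 1 leukaemia line, not normal antigen-presenting cells. Each mark has 1 library, so no value has a replicate error, no test between conditions was possible, and counting intervals cover counting error only.

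MHC class I molecules present peptides from inside the cell on nearly all nucleated cells, each as a heavy chain paired with beta-2-microglobulin. Class II molecules present peptides from taken-up material and are found mainly on professional antigen-presenting cells, although blood progenitors and some myeloid cells also carry them. Class II genes depend on CIITA, a co-activator that binds no DNA itself and is recruited by factors at a shared promoter module. Its class I counterpart is NLRC5. H3K27ac marks active promoters and enhancers, and H3K4me3 marks mainly promoters.

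The span of a gene was its hg38 record with 5 kb on either side, and a peak counted when it shared at least 1 bp with the span. Peak strength is given as the fold that the authors deposited, the enrichment at the summit over an expected background. The number of fragments at the summit was recovered from the authors' fold and p-value. The lists hold 96659 H3K27ac and 36951 H3K4me3 peaks on these chromosomes, with a median of 21 and 39 fragments. The weakest listed peaks have 9 and 8 fragments, so weaker signal would not be listed. Neither list has a peak on an alternate MHC haplotype sequence. Of 5 myeloid and blood markers 5 carried both marks at the start (SPI1, CD33, KIT, MPO and PTPRC), and of 3 genes of other tissues (ALB, DES and CAMK2A) 0 did. So did 2 of 3 B cell genes and 2 of 2 T cell genes, while 1 of 3 dendritic cell genes did (FLT3).

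RefSeq promoter sequences, from 250 bases before the start to 50 after it, were held for 6 of the 9 genes. The 5 below are shown because their starts carried a peak and because class I and class II promoters are known for a shared module that ends in a CCAAT box, the Y box bound by NF-Y. Capitals mark matches on either strand to CCAAT, to TGACG (the core of the CREB site, found in the X2 box), to an NF-kB site (GGGAA and CC with 3 bases between) and to the core of the interferon response element (GAAA and GAAA with 2 bases between). Matches can overlap. The sequences are of build GRCh38.p14 and are the reference, not the alleles of KBM7.

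HLA-B, minus strand of chr6:31357130-31357429: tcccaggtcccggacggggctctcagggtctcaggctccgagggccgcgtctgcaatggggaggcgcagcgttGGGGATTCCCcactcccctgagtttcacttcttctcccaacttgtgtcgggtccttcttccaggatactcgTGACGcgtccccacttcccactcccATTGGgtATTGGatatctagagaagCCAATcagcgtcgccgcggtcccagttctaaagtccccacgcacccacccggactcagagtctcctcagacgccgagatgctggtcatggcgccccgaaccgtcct
HLA-C, minus strand of chr6:31272043-31272342: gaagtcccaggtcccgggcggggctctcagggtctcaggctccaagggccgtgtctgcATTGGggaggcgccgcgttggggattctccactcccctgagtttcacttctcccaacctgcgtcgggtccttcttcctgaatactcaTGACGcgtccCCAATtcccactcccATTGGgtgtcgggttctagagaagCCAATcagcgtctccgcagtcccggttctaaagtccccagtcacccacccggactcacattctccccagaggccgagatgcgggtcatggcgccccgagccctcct
B2M, plus strand of chr15:44711267-44711566: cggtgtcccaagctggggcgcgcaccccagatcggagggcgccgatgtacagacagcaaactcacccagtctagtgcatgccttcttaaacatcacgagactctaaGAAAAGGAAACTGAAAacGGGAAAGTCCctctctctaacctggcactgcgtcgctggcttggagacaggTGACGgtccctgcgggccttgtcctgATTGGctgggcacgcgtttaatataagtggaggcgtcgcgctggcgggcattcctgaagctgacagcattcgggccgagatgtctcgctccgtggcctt
HLA-DMA, minus strand of chr6:32953048-32953347: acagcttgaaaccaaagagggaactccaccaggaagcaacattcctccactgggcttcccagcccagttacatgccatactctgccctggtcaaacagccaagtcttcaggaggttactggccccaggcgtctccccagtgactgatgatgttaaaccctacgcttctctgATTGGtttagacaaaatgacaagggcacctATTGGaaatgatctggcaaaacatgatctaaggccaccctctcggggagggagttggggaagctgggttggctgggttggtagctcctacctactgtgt
CD74, minus strand of chr5:150412861-150413160: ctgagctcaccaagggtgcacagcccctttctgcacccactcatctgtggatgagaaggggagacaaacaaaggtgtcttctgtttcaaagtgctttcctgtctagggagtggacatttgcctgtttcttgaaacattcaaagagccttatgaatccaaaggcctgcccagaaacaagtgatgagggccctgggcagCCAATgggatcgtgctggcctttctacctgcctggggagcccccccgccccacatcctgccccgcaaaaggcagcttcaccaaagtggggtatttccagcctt

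All 5 of these promoters held a CCAAT match, which 34.6% of the 35116 promoters in the table hold, and neither HLA-DPA1 window did. TGACG was found at HLA-B, HLA-C and B2M and in both HLA-DPA1 windows, against 24.6% of all promoters. The NF-kB pattern was found at HLA-B (positions -177 to -168 from the start) and B2M (-126 to -117), against 6.90% of promoters. The interferon pattern matched at B2M alone among these genes, with 2 overlapping matches between -144 and -129, against 3.57% of promoters. TAGCAAC, part of the X1 box bound by RFX, was in none of the 7 windows searched, against 2.85% of promoters. A match describes letters in this window and no factor was measured. The HLA-B and HLA-C windows were identical at 269 of 296 aligned bases (90.9%).

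All 4 class I genes carried both marks over their start, and all but HLA-DPA1 of the class II genes had overlapping peaks of the marks in their span. H3K27ac was found in the span of 4 of 4 class I and 4 of 5 class II genes, against 72.7% of all protein-coding genes. H3K4me3 was found in 4 of 4 and 5 of 5, against 76.4%. Peaks of the marks overlapped each other in 4 of 4 and 4 of 5, against 69.3%. Presence of a peak is therefore common, and lists of 4 and 5 genes near such a share show nothing particular. Within 1 kb of a gene start, H3K27ac was found at 8 of the 9 genes (63.1% of all genes) and H3K4me3 at 8 (67.7%), with HLA-DPA1 the exception for both. The promoter table holds no start for HLA-E, HLA-DRA or CIITA, and both ends of their record stood in for it. All 3 are known to be transcribed towards higher coordinates. By the lower end alone CIITA had no H3K4me3 at its start, which left 3 of 5 class II genes with that mark there.

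Peak strength spread widely within each class, and the classes overlapped. The strongest H3K27ac peak of the class I genes had folds of 9.16 at HLA-B, 9.47 at HLA-C, 34.5 at HLA-E and 41.2 at B2M. In class II the folds were 7.43 at HLA-DMA, 14.5 at HLA-DRA, 27.1 at CD74 and 30.9 at CIITA, and HLA-DPA1 had no peak. The class medians were 21.97 and 20.8, near the 23.6 of all genes with a peak (interquartile range 15.3 to 31.1). For H3K4me3 the class I folds were 32.2 at HLA-C, 32.5 at HLA-B, 79.7 at B2M and 96.5 at HLA-E. The class II folds were 13.0 at HLA-DMA, 18.2 at HLA-DPA1, 49.4 at HLA-DRA, 56.4 at CD74 and 85.0 at CIITA. The CIITA peak holds the start of CLEC16A, and without such peaks the CIITA fold was 64.2. The HLA-DPA1 peak lies at the HLA-DPB1 start, and the HLA-DMA peak lies past the 3′ end (start peak 11.0). The medians were 56.1 and 49.4, against 63.4 over all genes with a peak (46.6 to 75.9). The same genes were thus low for either mark among genes with a peak of that mark. HLA-B, HLA-C and HLA-DMA lay between percentiles 7.66 and 14.7 of those genes for both marks, whereas HLA-E and B2M lay between 81.7 and 98.4. The B2M peaks of both marks cover its start but also hold starts of PATL2. Without such peaks the B2M folds were 4.94 for H3K27ac and 3.72 for H3K4me3. HLA-DPA1 was at percentile 9.85 for H3K4me3.

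**Figure D1:**
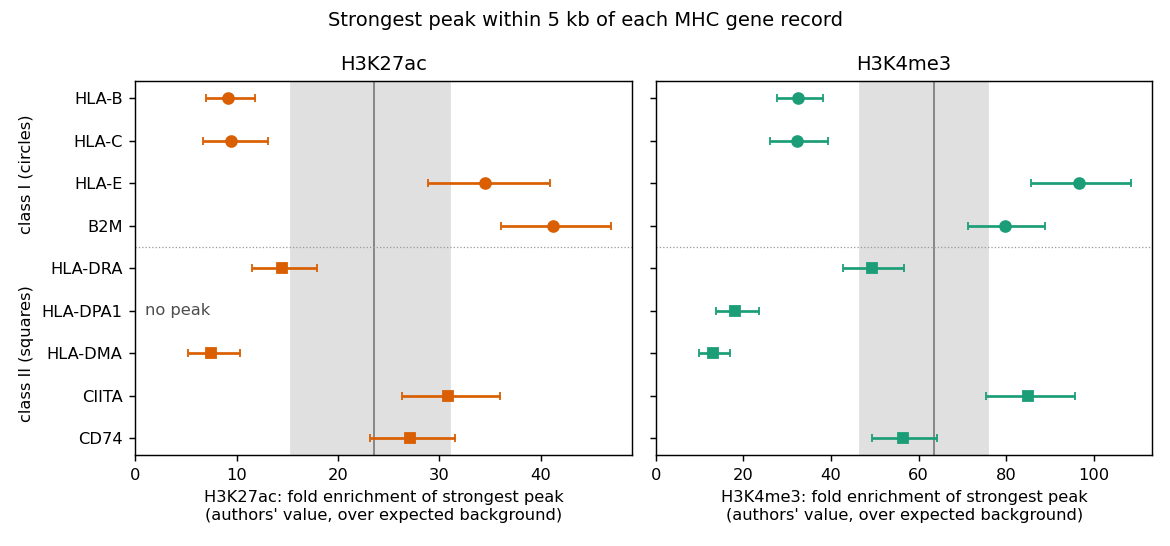
Fold enrichment (authors' value) of the strongest H3K27ac (left) and H3K4me3 (right) peak within 5 kb of each gene record, circles for class I and squares for class II. Bars are 95% Poisson intervals of the fragments at the summit, the grey band is the interquartile range and the line the median of all protein-coding genes with a peak. HLA-B, HLA-C and HLA-DMA lie left of the band in both panels and HLA-E and B2M right of it. For H3K4me3 the CIITA peak holds the CLEC16A start, the HLA-DPA1 peak lies at the HLA-DPB1 start and the HLA-DMA peak past the 3′ end. The B2M peaks of both marks also hold starts of PATL2.

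In the order of H3K27ac folds, the only step between neighbours whose 95% Poisson intervals did not overlap was from CD74 (23.2 to 31.5) to HLA-DRA (11.5 to 18.0). B2M, HLA-E, CIITA and CD74 were each within the interval overlap of the next, as were HLA-DRA, HLA-C, HLA-B and HLA-DMA. In the order of H3K4me3 folds the intervals were apart at 3 steps, from B2M (71.4 to 88.8) to CD74 (49.4 to 64.1), from HLA-DRA (42.8 to 56.6) to HLA-B (27.6 to 38.1), and from HLA-C (26.02 to 39.3) to HLA-DPA1 (13.9 to 23.5). Counting error was the only error in these intervals. The H3K4me3 order uses the peaks of CIITA, HLA-DPA1 and HLA-DMA that lie away from their own starts, as given above. In both orders the B2M peak also holds starts of PATL2.

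HLA-B and HLA-C encode classical class I heavy chains, which vary greatly between people. HLA-B (chromosome 6, 31353875 to 31357179) had 2 H3K27ac peaks, one over the start with 28 fragments (fold 7.63) and one whose summit lay 627 bp inside the gene with 58 (fold 9.16). Its 2 H3K4me3 peaks followed the same pattern, with 64 fragments over the start (fold 22.2) and 153 inside the gene (fold 32.5), and the summits of the marks inside the gene were 1 bp apart. The 95% intervals of the 2 folds overlapped for either mark, for H3K4me3 only narrowly (17.2 to 28.3 and 27.6 to 38.1). Whether their order exceeds counting error was not tested. Between the peaks lay a gap of 171 bp for H3K27ac and 60 bp for H3K4me3, each between 165 and 335 bp downstream of the start. HLA-C (chromosome 6, 31268749 to 31272092) had H3K27ac peaks of 35 fragments inside the gene (fold 9.47) and 24 upstream of it (fold 6.58), with a gap of 129 bp from -186 to -58 bp of the start. Its main H3K4me3 peak covered the start without a gap (1377 bp, 93 fragments, fold 32.2). The marks covered 8.03% and 16.7% of the HLA-B span and 8.29% and 13.2% of the HLA-C span. The treatment of reads that match more than 1 HLA gene is not stated in the labels, and the part of the shared sequence above, or of alleles that differ from the reference, in these low values was not tested.

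HLA-E encodes a non-classical class I chain with little variation, a ligand of natural killer cell receptors. It had the highest H3K4me3 fold of the 9 genes. At HLA-E (chromosome 6, 30489509 to 30494194) a single H3K4me3 peak of 2302 bp had 281 fragments against an expected 1.92 (fold 96.5), which placed the gene at percentile 98.4 of genes with the mark. The H3K27ac peak over its start was 1789 bp wide with 130 fragments (fold 34.5), and its summit was 10 bp from that of H3K4me3. A narrower H3K27ac peak of 39 fragments lay just upstream (fold 8.65) and a weak one of 14 fragments further out (fold 3.95). Past the 3′ end of the record were 3 further H3K27ac peaks, with 21, 35 and 26 fragments and no H3K4me3 peak over them, which open the super-enhancer described below.

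B2M encodes beta-2-microglobulin, the light chain of every class I molecule, and lies outside the MHC (chromosome 15, 44711517 to 44718145). It had the highest H3K27ac fold and the widest promoter intervals of the class I genes. The H3K27ac interval was 3640 bp wide with 228 fragments (fold 41.2), and the H3K4me3 interval was 4595 bp wide with 328 fragments (fold 79.7). The summits lay 240 and 245 bp downstream of the start. These intervals also hold 2 starts of PATL2, a gene read in the opposite direction, at 127 and 194 bp from the B2M start, so the signal of the genes cannot be told apart. Without intervals that hold another gene's start, the strongest B2M folds were 4.94 for H3K27ac and 3.72 for H3K4me3. The other 4 H3K27ac peaks of the span were weak (14 to 21 fragments, folds 2.99 to 4.94).

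HLA-DRA, which encodes the nearly invariant alpha chain of HLA-DR, was the class II chain gene with the strongest marks of the 3 examined in depth that lie in the MHC. At HLA-DRA (chromosome 6, 32439887 to 32445046) the H3K4me3 peak was 1515 bp wide with 202 fragments (fold 49.4), and the H3K27ac peak was 1269 bp wide with 79 (fold 14.5). The summits were 3 bp apart, 112 and 115 bp from the lower end of the record. A second H3K27ac peak with 39 fragments lay upstream (fold 6.99), followed by 2 weak ones further out (14 and 16 fragments).

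HLA-DPA1 encodes the alpha chain of HLA-DP and was the one gene of the 9 with no H3K27ac peak in its span (chromosome 6, 33064569 to 33080748). The nearest was 80898 bp from the record. Its single H3K4me3 peak (799 bp, 57 fragments, fold 18.2) lay at the start of HLA-DPB1, the gene of the paired beta chain, with the summit 166 bp from that start. The RefSeq table gives HLA-DPA1 starts 2341 and 4758 bp from the HLA-DPB1 start, and neither had a peak within 1 kb. HLA-DPA1 was thus counted as having H3K4me3 through a peak at its neighbour.

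HLA-DMA encodes the alpha chain of HLA-DM, which exchanges peptides on class II molecules. Its marks were the weakest among genes with both. At the start (chromosome 6, gene record 32948618 to 32953097) the H3K27ac peak had 34 fragments (fold 7.43) and the H3K4me3 peak 38 (fold 11.0). A weaker H3K27ac peak of 17 fragments (fold 2.18) lay beside them. The summits at the start were 164 and 188 bp downstream of it, and the peaks covered 37 and 55 of the 300 promoter bases printed above. A further pair of peaks lay past the 3′ end, 28 fragments for H3K27ac (fold 4.92) and 54 for H3K4me3 (fold 13.0). These were 3306 and 3253 bp from the start of HLA-DMB, whose product pairs with that of HLA-DMA, and the pair is also in the HLA-DMB span.

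CD74 encodes the invariant chain, which fills the groove of new class II molecules and guides them to endosomes. At CD74 (chromosome 5, 150401639 to 150412910) H3K4me3 was strongest at the start, with 231 fragments 323 bp downstream of it (fold 56.4, 2551 bp). H3K27ac had 168 fragments at a site 2623 bp inside the gene (fold 27.1, 95% interval 23.2 to 31.5) and 136 in the interval of 3521 bp that covers the start (fold 21.4, 18.0 to 25.3). These intervals overlap, and whether the order of the 2 H3K27ac peaks exceeds counting error was not tested. An H3K4me3 peak of 122 fragments met the internal site (fold 26.8, summit 2631 bp from the start). H3K27ac covered 34.4% of the span and H3K4me3 17.1%. The other 5 H3K27ac peaks had 14 to 27 fragments.

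**Figure D2:**
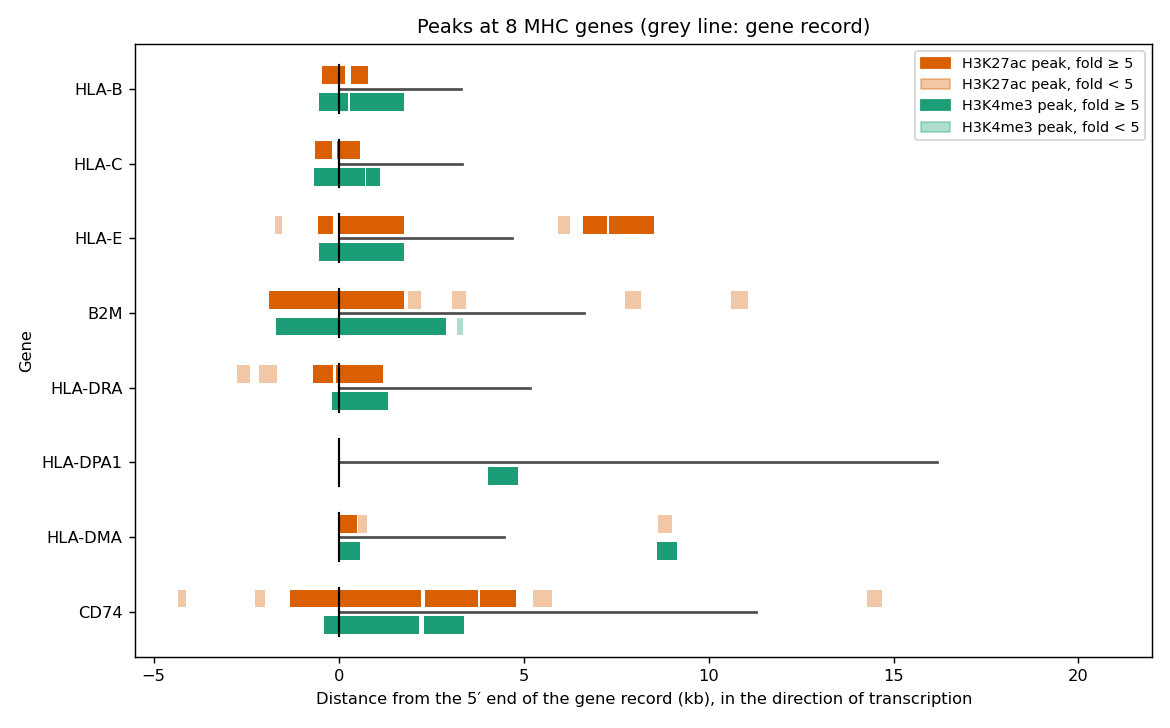
Peaks of H3K27ac (orange) and H3K4me3 (green) at 8 genes, by distance in kb from the 5′ end of the gene record (black tick) in the direction of transcription. The grey line is the record and pale bars have a fold under 5. B2M and CD74 have the widest intervals, 3640 and 3521 bp for H3K27ac, and HLA-DPA1 has a single H3K4me3 peak away from its end.

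CIITA encodes the master co-activator of class II genes and is known to use several alternative promoters in different cell types, the positions of which are not in the tables used here. Its marks lay mostly inside the gene, over 7 H3K27ac and 8 H3K4me3 peaks with summits in the first 30 kb of the record. The strongest of these were at percentile 74.3 for H3K27ac and 51.3 for H3K4me3 among genes with the mark. At CIITA (chromosome 16, 10866206 to 10943021) an H3K27ac interval of 17479 bp reached from 8.13 to 25.6 kb past the lower end of the record, with 160 fragments at its summit (fold 30.9). It was rank 22 by width among the 96659 peaks. Within it an H3K4me3 interval of 5676 bp had 263 fragments at its summit 13.1 kb into the record (fold 64.2, rank 355 by width of 36951). A second H3K27ac interval of 5561 bp spanned 1.02 to 6.58 kb (143 fragments, fold 26.7). The 95% intervals of the folds 26.7 and 30.9 overlapped (22.6 to 31.5 and 26.3 to 36.0). Whether their order exceeds counting error was not tested. The interval of 5561 bp held weaker H3K4me3 peaks, the strongest with 51 fragments (fold 13.4) and its summit at 2.79 kb. At the lower end itself were 32 H3K27ac fragments (fold 5.96) and no H3K4me3 peak.

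The far end of CIITA was shared with other genes. From 30 to 70 kb the record held 11 H3K27ac summits and 0 of H3K4me3, and the strongest of the 11 had 45 fragments (fold 9.77). Past 70 kb the peaks surrounded the starts of DEXI and CLEC16A, which the span includes. The strongest H3K4me3 peak of the whole span (fold 85.0, 279 fragments) holds the CLEC16A start, and one of fold 59.9 holds the DEXI start. Without peaks that hold another gene's start, the strongest H3K4me3 fold at CIITA was 64.2. This was percentile 51.3 of genes with the mark in place of 89.8, and the H3K27ac fold of CIITA kept its value. H3K27ac covered 44.5% of the span and H3K4me3 21.1%, the former the highest of the 9 genes, but this span of 86816 bp is also the longest.

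**Figure D3:**
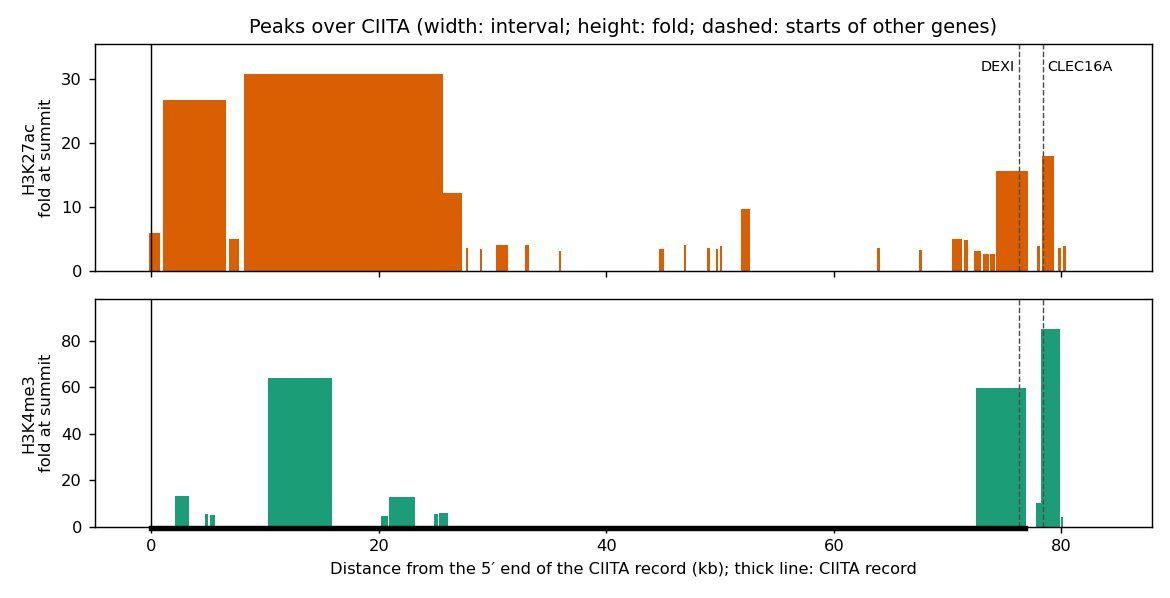
H3K27ac (top) and H3K4me3 (bottom) peaks over CIITA by distance in kb from the 5′ end of its record; the width of a bar is the peak interval, its height the fold at the summit, and dashed lines are the starts of DEXI and CLEC16A. The interval of 17479 bp stands over the H3K4me3 peak of fold 64.2, and 30 to 70 kb holds no H3K4me3 peak.

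Where the strongest peaks of the marks overlapped, their summits nearly coincided. This was so at HLA-B, HLA-C, HLA-E, B2M and HLA-DRA, with distances of 1, 28, 10, 5 and 3 bp. Over 11455 protein-coding genes with such an overlap the median distance was 88 bp, and 40.3% were within 50 bp. At HLA-DMA, CIITA and CD74 the strongest peaks of the span did not overlap. At CIITA this rests on the peak at the CLEC16A start, since without peaks that hold another gene's start the strongest intervals overlapped, with summits 13.3 and 13.1 kb into the record. At HLA-DMA it rests on the peak past the 3′ end, whose H3K4me3 interval (9.80 to 16.8) overlapped that of the start peak (7.86 to 15.0). With 1 kb either side the HLA-DMA start peaks were the strongest for both marks.

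One super-enhancer, a long region of joined H3K27ac peaks in the authors' table, belonged to the 9 genes. It is assigned to HLA-E and begins 1.24 kb past the HLA-E record (chromosome 6, 30495438 to 30532982, 37.5 kb). In the authors' deposited table its rank is 340, and the ratio of H3K27ac to input signal over the region was 8.18, against a median of 8.11 over the table. It held 17 H3K27ac peaks, the strongest of 140 fragments (fold 22.04) at 21.8 kb from the gene, and 4 H3K4me3 peaks with a highest fold of 17.4. Going by the name of the table, the authors picked targets with the help of expression, so the assignment says nothing independent about expression. Having a super-enhancer as target or in the span applied to 1 of 9 genes here and to 4.01% of all genes.

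The other genes lay further from the authors' regions. The nearest to CD74 was 28.8 kb away and assigned to RPS14, and the nearest to HLA-B and HLA-C was the region assigned to LST1, at 222.5 and 307.6 kb. That region was also nearest to HLA-DRA (821.3 kb), HLA-DMA and HLA-DPA1, and for B2M the nearest was 4609 kb away. CIITA had none within 251.4 kb, although of the 22 H3K27ac peaks at least as wide as its interval 13 overlapped a super-enhancer.

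Most genes that make peptides for class I or regulate it carried both marks. Of 18 class I pathway genes 16 had H3K27ac and 17 H3K4me3, against 72.7% and 76.4% of all protein-coding genes. The medians of the strongest folds were 28.0 and 70.5, against 23.6 and 63.4 over all genes with a peak. CALR, a chaperone of heavy chain folding (56.1 for H3K27ac and 91.2 for H3K4me3), and ERAP1, a peptide-trimming protease (46.0 and 83.7), had the highest H3K27ac folds, and PSME1, a proteasome activator subunit, the highest H3K4me3 fold (92.0). NLRC5 had folds of 22.7 and 85.6. The peptide transporter genes TAP1 and TAP2 (27.4 for H3K27ac at either) share peaks with the immunoproteasome genes PSMB9 and PSMB8. PSME1 also shares peaks with PSME2, and ERAP1 with ERAP2, including the strongest of ERAP2 for both marks (15.3 and 34.6). These genes are therefore not separate measurements. HLA-F had neither mark, and HLA-G, normally found in trophoblast, had H3K4me3 only (fold 3.38).

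The class II pathway list was described in 2 groups, formed after the values were seen, and the difference between them was not tested. All 10 non-HLA genes had both marks (median folds 26.7 and 53.0, against 23.6 and 63.4 over all genes), among them the promoter-binding factors NFYC (41.6 and 62.8), NFYA (34.7 and 66.6), RFXAP (17.8 and 76.2) and RFX5 (24.4 and 45.5), and CTSS, a protease that cuts the invariant chain (23.4 and 42.3). Of the 8 class II HLA genes 3 had H3K27ac and 5 H3K4me3, against the same 72.7% and 76.4% of all genes, with median folds of 4.92 and 13.0 where present. HLA-DQB1 stood highest (10.8 and 58.4). HLA-DRB5 (4.74 and 8.21) and HLA-DMB (4.92 and 13.0) had both marks at low folds, HLA-DRB1 (fold 6.50) and HLA-DPB1 (18.2) had H3K4me3 only, and HLA-DQA1, HLA-DOA and HLA-DOB had neither. Both medians are the HLA-DMB values, from peaks that also lie in the HLA-DMA span, and the HLA-DPB1 peak is the one counted for HLA-DPA1. HLA-DMB and HLA-DPB1 are therefore not measurements separate from HLA-DMA and HLA-DPA1. HLA-DR and HLA-DQ genes vary between people and have close copies, and the part of read mapping in these values was not tested.

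The genes of interferon and NF-kB signalling, which raise MHC genes when activated, had overlapping peaks of the marks in 11 of 11 cases, against 69.3% of all genes. Their median folds were 34.3 for H3K27ac and 66.3 for H3K4me3, against 23.6 and 63.4 over all genes with a peak. The H3K4me3 median was thus close to that of all genes with a peak. The highest H3K27ac folds were at IRF1 (45.4) and IRF2 (43.6) and the highest H3K4me3 folds at JAK1 (86.6) and IRF2 (82.5). No cytokine was added in this series, so no response was measured.

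**Figure D4:**
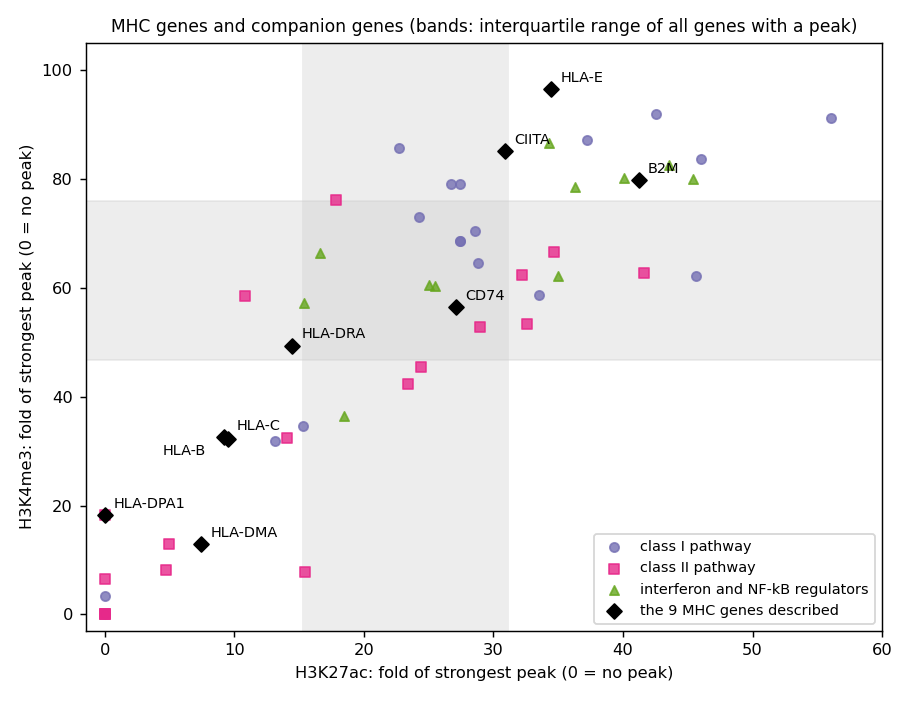
Fold of the strongest H3K27ac peak (x axis) against that of the strongest H3K4me3 peak (y axis) for the 9 genes (black) and 47 companion genes by list, with 0 for no peak and grey bands for the interquartile range of all genes with a peak. Apart from HLA-DQB1 (58.4 for H3K4me3) the companion class II HLA genes lie at the lower left, and HLA-E has the highest H3K4me3 fold shown (96.5).

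By strongest fold and covered bases of the marks, 4 measures from 2 libraries, the companion nearest to CD74 was IFNGR1 (Euclidean distance 0.16 on a log2 scale) and to B2M was PSME1 (0.23). HLA-DRA was nearest to HLA-DQB1 (0.59), HLA-E to PSMB10 (0.70), HLA-DMA to HLA-DMB (1.06), with which it shares peaks, and CIITA to ERAP1 (1.57). The CIITA measures include the peaks at the DEXI and CLEC16A starts, and the H3K4me3 fold used is that at the CLEC16A start (85.0). HLA-DPA1 and HLA-DPB1 coincided because they share their only peak.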

How the data were processed

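ChIP-seq of wild-type KBM7 cells gave 1 library per mark. The tools Bowtie2 2.3.4 and bedtools 2.20.1 and the build hg38 are named in the submitters' processing notes, and no source used here names the peak caller. The peak lists that the authors deposited hold a fold enrichment (a ratio), p-values and q-values as −log10, and a score (the −log10 q multiplied by 10 and cut to a whole number). In the deposited table of super-enhancers the file headers name an H3K27ac and an input signal per region, whose scale is not stated.

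Fragments at a summit were recovered as the whole number that fits the fold, (fragments + 1)/(expected + 1), and the upper Poisson tail, within 0.01 on the −log10 scale, in 100% of rows. The recovery was tested on simulated data. Gene records and starts came from RefSeq GRCh38.p14, in which 15812 of the 19970 protein-coding genes have a start. Other genes took both ends of the record. Motifs were searched on both strands. Python 3.11.15, scipy 1.17.1 and pandas 2.3.3 were used.

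The 9 genes and the companion lists were chosen with earlier results of these data known. Named companions are the top 2 of each list by fold for each mark, those lacking a mark and the nearest in pattern (not reported here for HLA-B and HLA-C); others named were chosen after their values were seen. Alternatives were stricter peak cut-offs, narrower spans, summits in place of intervals, other start windows and other distances to super-enhancers.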

Additional observations from a re-analysis of the deposited data

How the results depend on the processing

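The counts of class I and class II genes with a mark in the span were the same under all 5 alternatives tried, which were peaks with a −log10 q of at least 5, the top 50% of peaks by fold, 1 kb either side, the gene record alone and the summit inside the span. Over all counts of genes, companions and background included, 110 of 112 alternative values stayed within 1.5 times the main count. The count of genes with a super-enhancer was the exception, at 2 with 50 kb either side, which adds CD74, and 0 with overlap of the gene record alone. The limit of 1.5 times is wide, since a fall from 4 to 3 genes stays within it. Among companions, class II pathway genes with H3K4me3 fell from 15 to 12 with the top 50% by fold. The bases covered changed in 42 of 85 values. For the strongest fold 49 of 51 values stayed within the counting interval. The others were H3K4me3 at CIITA, 64.2 with 1 kb either side and with the record alone, because the CLEC16A peak then falls outside. The spans compared are nested and mostly return the same peak, so this agreement is largely built in. Taking only the lower record end as the start, chosen after seeing the data, left H3K4me3 at the start of 3 class II genes. Depth limits what a missing peak shows, since a listed peak needed at least 9 fragments for H3K27ac and 8 for H3K4me3.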
